A study of Mus musculus with 16 samples.

Results

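The genes of complement and blood coagulation were followed in kidney and liver RNA of aged mice, as a list of 49 genes among the 24984 in the count tables. They were taken by name for their place in these cascades: classical, lectin, alternative and terminal complement, the receptors of the anaphylatoxins, the tissue factor, contact and common arms of coagulation, fibrin formation, anticoagulants and fibrinolysis. The rule went by gene name and used no measured value, though the list was chosen with earlier results of these data known. All 49 genes were listed in each of the 16 libraries. The mice were female, of the C57BL/6 strain and of WT genotype, and the labels give their age as 24 months, which was the age at injection; organs were taken 3 months later. They had received an AAV8 vector by tail vein, which carried a short hairpin RNA against Fos (shFOS) or a non-targeting hairpin (shNT), so every group, controls included, carried a virus vector. Kidney and liver were each sequenced from 4 shNT and 4 shFOS samples. Fos encodes a subunit of the AP-1 transcription factor, and the comparison asked how lowering it in old tissue changed gene expression. The sources used here name no promoter or cell type that limits where the hairpin acts, untreated mice were not among the samples, and the labels do not say whether kidney and liver of the same number came from the same mouse or whether each sample was a separate animal. P-values therefore measure the spread between these samples.

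Complement is a set of plasma proteins that cut and activate each other. C1q bound to immune complexes starts the classical pathway, mannose-binding lectins bound to sugars start the lectin pathway, and factor B, factor D and properdin (Cfb, Cfd, Cfp) drive the alternative pathway; all of them cleave C3, after which C5 (Hc in the mouse) and the components up to C9 assemble a membrane pore. In coagulation, tissue factor (F3) with factor VII (F7) or the contact factors lead to thrombin (F2), which turns fibrinogen (Fga, Fgb, Fgg) into fibrin that factor XIII (F13a1, F13b) cross-links and plasmin (Plg) dissolves. Hepatocytes secrete most of these plasma proteins, macrophages make much of the C1q, and endothelial cells are known sources of factor VIII (F8), von Willebrand factor (Vwf) and thrombomodulin (Thbd).

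Kidney libraries held 14194543 to 15534665 counted reads and liver libraries 16652150 to 18300277. Levels are given as CPM, read counts scaled to a common library total with TMM factors over the 16 libraries, and 3 counts, the limit that a count of 0 allows, correspond to 0.138 to 0.161 CPM in kidney and 0.220 to 0.277 CPM in liver. Such limits cover counting error only. Fos itself was low. In kidney it stood at 3.80 ± 0.714 CPM in shNT (SD, n = 4) and 2.28 ± 0.654 CPM in shFOS (n = 4), with no overlap between the groups (2.99 to 4.73 and 1.61 to 2.95; two-sided exact permutation p = 0.0286, the smallest that 70 assignments allow). In liver it stood at 3.54 ± 1.52 and 2.57 ± 0.875 CPM (n = 4 each), and the groups overlapped (1.57 to 5.20 and 1.97 to 3.87; exact permutation p = 0.343), so the targeted gene did not separate the liver groups. The 8 kidney epithelium markers summed to 8356 CPM or more in each kidney library and to at most 6.40 CPM in any liver library. The 8 hepatocyte markers summed to 78476 CPM or more in each liver library and to between 123 and 502 CPM in kidney. Some libraries stood apart. Liver shNT 4 had 81547 CPM of 8 acute-phase genes against 6267 to 15567 in the other 7 livers, and 38721 CPM of albumin (Alb) against 136188 to 237954. Among those acute-phase genes Crp was not high there, at 612 CPM against 575 to 996 in the other 7 livers. Kidney shNT 4 was the lowest of the shNT kidneys in the proximal tubule transporter Slc34a1 (2395, 2198, 2538 and 1223 CPM in shNT 1 to 4). It was the highest in the sum of the 8 acute-phase genes (218 CPM against 18.9 to 65.7 in the other 7). Lcn2, Hp and Saa3 were highest there at 158, 42.2 and 15.9 CPM, while Saa1, Saa2, Orm1, Orm2 and Crp were not. For genes whose values turn on one of these libraries, the difference without it is given as well. Bulk RNA cannot tell fewer cells of a type from less RNA per cell.

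The liver held most of this RNA. The 49 genes took 4.95% to 11.6% of the counted reads in liver libraries and 0.178% to 0.257% in kidney libraries. The 11.6% was that of liver shNT 4, and no other liver was above 5.46%. Between shNT livers and shNT kidneys, 40 of the 49 genes were higher in liver, 6 were higher in kidney and 3 did not pass (edgeR quasi-likelihood test, Benjamini-Hochberg adjusted p under 0.05). Of the 15421 genes tested, 30.2% were higher in liver and 34.4% lower. The median log2 difference, liver over kidney, was 5.92 over the 49 genes and -0.05 over all genes tested. The groups of 4 did not overlap for 42 of the 49 genes (37 higher in liver, 5 in kidney), where 56.2% of all genes tested did not. How far the tissues differ depends on the scaling: with library size alone and no TMM factors, the median of all genes tested moved to -1.10, 9.79% of genes were called higher and 75.1% lower in liver, and 34 of the 49 were called higher and 8 lower.

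**Figure D1:**
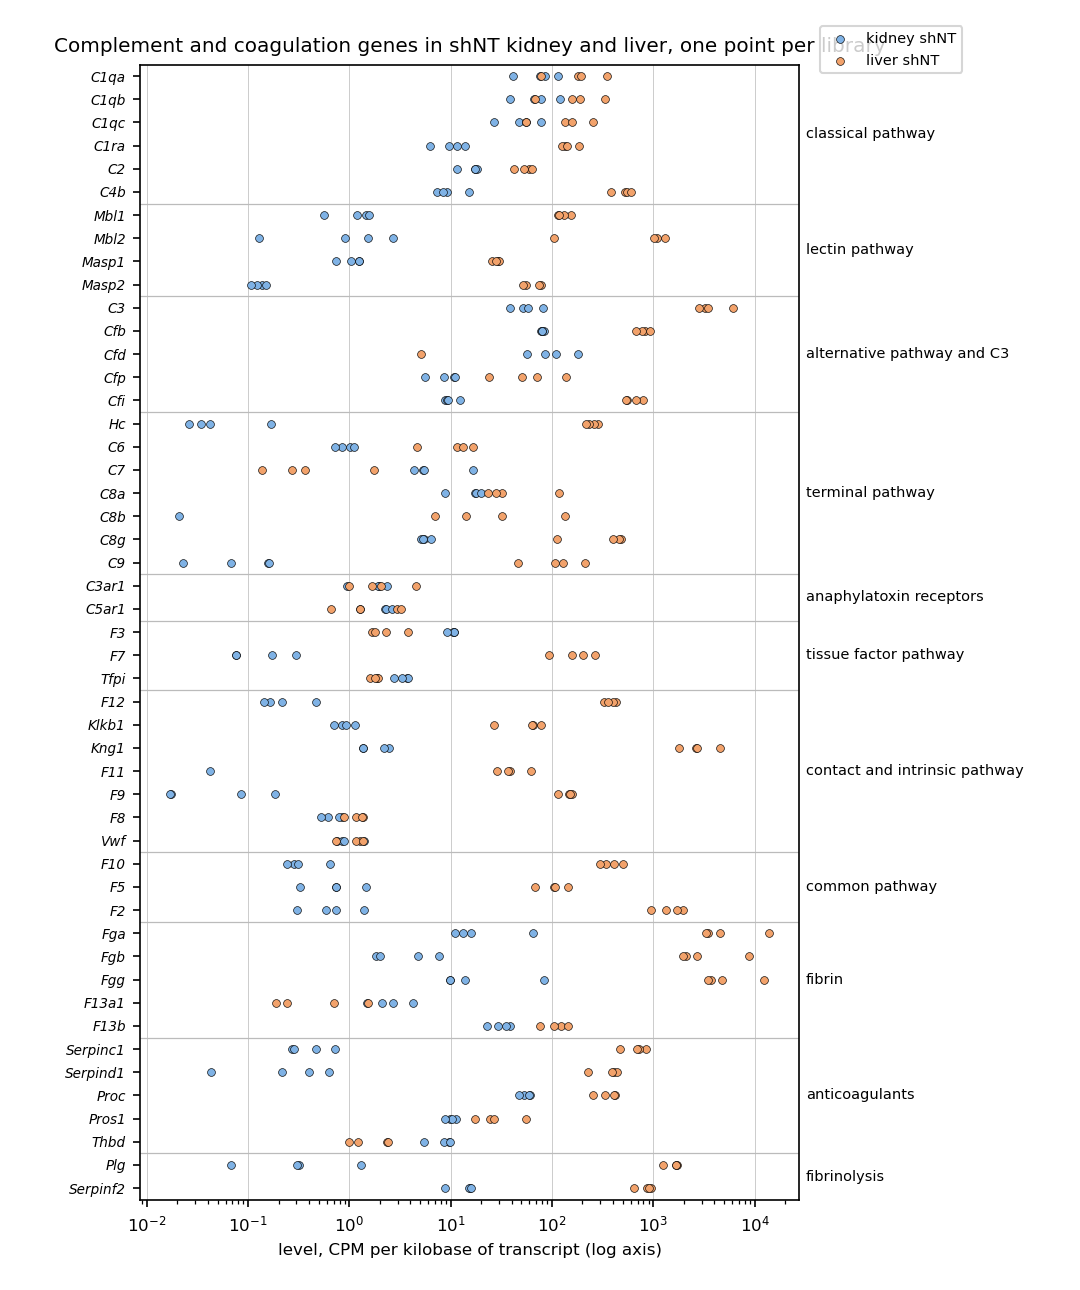
Level of each gene in the 4 shNT kidneys and 4 shNT livers, in CPM per kilobase of transcript on a log axis, with 1 point per library and the genes grouped by role. Libraries with a count of 0 are not drawn (3 kidneys for C8b and for F11, 3 livers for Cfd). The liver points lie to the right for most genes, and C7, F3, Tfpi, F13a1, Thbd and Cfd lie the other way.

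Per kilobase of transcript, which allows genes to be compared, fibrinogen and C3 led in shNT liver. Fga stood at 6329.6 ± 5125 CPM per kilobase (SD, n = 4), Fgg at 6146 ± 4293, C3 at 3894 ± 1469 and Fgb at 3877 ± 3259. These 4 neighbours in the order did not differ beyond their spread, which for all of them was set by the high level in shNT 4. They were followed by kininogen (Kng1, the source of bradykinin) at 2930.1 ± 1165, plasminogen at 1583 ± 230.03 and prothrombin at 1491 ± 439. Without shNT 4 the order was Fgg (4019.5 ± 708, n = 3), Fga (3783 ± 692), C3 (3169.8 ± 299.9), Kng1 (2387 ± 512) and Fgb (2255 ± 383), then prothrombin (1669 ± 314) and plasminogen (1548 ± 269). The order in shNT kidney was another. Factor D (Cfd), the protease that activates factor B, stood at 108 ± 52.6 CPM per kilobase, factor B at 80.3 ± 2.22, C1qa at 79.4 ± 30.7, C1qb at 75.3 ± 33.4, C3 at 57.6 ± 18.1 and protein C (Proc, an anticoagulant protease) at 54.8 ± 5.93. Neighbours in this kidney order differed by less than the larger of their SDs.

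By role, the contact and intrinsic genes had a median log2 difference of 10.54, liver over kidney, with 6 of 7 higher in liver, and the common pathway 10.02 with 3 of 3 higher. All 4 lectin pathway genes and all 6 classical pathway genes were higher in liver, at medians of 7.85 and 1.65. Neither anaphylatoxin receptor passed: C3ar1, the C3a receptor, differed by 0.37 (SE 0.39, adjusted p = 0.424) and C5ar1, the C5a receptor, by -0.05 (SE 0.40, adjusted p = 0.916). Vwf, which carries factor VIII in plasma and tethers platelets, read 6.63, 7.42, 7.74 and 12.4 CPM in shNT kidneys 1 to 4 and 11.2, 10.2, 6.59 and 11.9 CPM in shNT livers 1 to 4. Those groups overlapped (log2 fold change 0.22, SE 0.37, adjusted p = 0.617), and the sign turned without TMM factors (-0.83). C8a passed narrowly (log2 fold change 1.66, SE 0.67, adjusted p = 0.0418) and did so in 7 of 18 alternatives: without liver shNT 4 its difference was 0.80 (adjusted p = 0.270), without kidney shNT 4 it was 1.45 (adjusted p = 0.105), and with the replicate number as a block it was 1.27 (adjusted p = 0.181), which took the count of calls from 46 to 45, beside 66.2% of all genes. It also missed the threshold when kidney shNT 1, 2 or 3 was left out. Without both shNT libraries numbered 4, 44 of the 49 passed beside 65.5% of all genes, F8 being lost along with C8a.

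For 13 of the 49 genes the shNT kidney level was under 0.1% of the shNT liver level (0.0112% to 0.0955%), for 7 it was 0.105% to 0.920%, for 22 it was between 1% and 100%, and for 7 it was above the liver level. Of the 8 hepatocyte markers, Alb, Apoa1, Apoa2, Ahsg and Cps1 stood at 0.0307% to 0.0595% by the same measure, inside the range of the first 13, and Serpina1c, Ttr and Cyp2e1 at 0.127%, 1.07% and 3.34%. The largest differences toward liver, by log2 value, were those of C8b, Hc, Plg, F11 and F2. C8b, a chain of the membrane attack complex, had 0, 0, 0 and 1 reads in shNT kidneys 1 to 4 and 171, 884, 431 and 3997 reads in shNT livers 1 to 4. F11, a contact factor, had 0, 0, 0 and 2 reads in those kidneys and 944, 1721, 872 and 1107 in those livers. Against 1 and 2 kidney reads, the liver levels were 9407 times (95% exact counting interval 1688 to 371633) and 3984 times (1102 to 32906) those of kidney. Plasminogen read 3.57, 0.188, 0.875 and 0.841 CPM in shNT kidneys and 4728, 4664, 3414 and 4649 CPM in shNT livers 1 to 4 (log2 fold change 11.63, SE 0.97, adjusted p = 3.7e-08). Hc, which encodes C5, read 0.927, 0.141, 0.230 and 0.187 CPM and 1556, 1407, 1250.03 and 1188 CPM (log2 fold change 11.80, SE 0.64, adjusted p = 2.09e-10). The thrombin precursor F2 read 2.78, 0.610, 1.47 and 1.17 CPM and 3877, 3432, 2646 and 1898 CPM (log2 fold change 10.93, SE 0.61, adjusted p = 2.67e-10). Of the C8b reads in shNT livers, shNT 4 held 3997 of 5483, and the kidney reads of C8b and F11 came from kidney shNT 4. Without kidney shNT 1 the differences of Plg and Hc were 12.74 and 12.77. For each of these genes every shNT liver lay above every shNT kidney. In kidney their few reads were not spread evenly: 8 of the 49 genes (Hc, F7, F12, Kng1, F9, F2, Serpinc1 and Plg) had their 2 highest kidney libraries in shNT 1 and shFOS 1, and so did 5 of the 8 hepatocyte markers, Alb among them (145, 22.2, 53.8 and 29.3 CPM in shNT and 138, 25.4, 35.9 and 59.5 CPM in shFOS kidneys 1 to 4). Serpinc1, which encodes antithrombin, read 3.57, 1.36, 2.30 and 1.40 CPM in shNT and 3.28, 1.19, 2.72 and 1.98 CPM in shFOS kidneys, against 4248, 3589, 3463 and 2342 CPM in shNT livers (log2 fold change 10.62, SE 0.47, adjusted p = 1.6e-11). The part that hepatocyte RNA plays in these low kidney values was not tested.

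Other genes had kidney levels well above that trace. F13b, the carrier subunit of factor XIII, stood at 27.9% of the shNT liver level, C2 at 29.5%, protein S (Pros1) at 32.4%, protein C at 15.5% and factor B at 10.03%. C3, on which all complement routes converge, read 196, 269, 299 and 419.5 CPM in shNT kidneys and 16532, 17679, 14629.5 and 31162 CPM in shNT livers (log2 fold change 6.08, SE 0.41, adjusted p = 2.8e-09), or 1.48%. C8a was counted at 20.2 to 85.3 CPM in the 8 kidneys while C8b, whose product pairs with it, had 6 reads in those 8 libraries together. The C8a gene overlaps Gm17662 on the opposite strand and reads were counted without strand, so its kidney level is uncertain. C8g likewise overlaps Fbxw5. C2 and factor B overlap Gm20547 on their own strand, so their levels are uncertain too. Masp1, Masp2, Klkb1, F8, Serpinc1, Serpind1 and Plg also overlap annotated coding genes.

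The 6 genes that were higher in kidney were Cfd, C7, Thbd, F3, F13a1 and Tfpi. Cfd read 78.9, 52.6, 102 and 166 CPM in shNT kidneys and 0, 0, 0 and 4.72 CPM in shNT livers 1 to 4. The kidney mean was 84.6 times that of liver (log2 fold change -6.33, SE 1.08, adjusted p = 9.05e-05), and liver shNT 4 held all 63 Cfd reads of its group. Against the other 3 livers alone, which were at 0, with a floor of 3 counts over them, kidney was at least 1224-fold higher. C7, which joins the membrane attack complex, read 11.5, 14.4, 14.5 and 44.8 CPM in kidney and 0.369, 0.977, 0.732 and 4.65 CPM in liver (log2 fold change -3.63, SE 0.59, adjusted p = 5.58e-05), and within each tissue shNT 4 was the highest. Its difference was -2.97 without kidney shNT 4, -4.91 without liver shNT 4 and -4.26 without both. Thrombomodulin, the endothelial cofactor that turns thrombin toward protein C, read 36.2, 31.7, 36.8 and 20.5 CPM in kidney and 4.52, 3.66, 8.78 and 8.92 CPM in liver (log2 fold change -2.26, SE 0.26, adjusted p = 1.46e-06). Tissue factor read 20.3, 19.9, 20.3 and 17.2 CPM in kidney and 3.14, 7.16, 3.37 and 4.27 CPM in liver (log2 fold change -2.11, SE 0.25, adjusted p = 1.83e-06). F13a1, the catalytic subunit of factor XIII made in macrophages and megakaryocytes, read 8.20, 5.91, 10.6 and 16.7 CPM in kidney and 0.739, 2.77, 0.951 and 6.07 CPM in liver (log2 fold change -1.96, SE 0.57, adjusted p = 0.00657). The tissues did not overlap for Cfd, C7, Thbd and F3, and they overlapped for F13a1 because of liver shNT 4, without which its difference was -2.79. Tfpi, the inhibitor of the tissue factor pathway, was -0.92 (SE 0.18, adjusted p = 0.000271) and did not overlap either. Without TMM factors all 6 remained lower in liver.

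The C1q genes lie side by side on chromosome 4 (136880129 to 136898803 of mm10, with gaps of 3616 and 2851 bases) and were higher in liver than in kidney, with overlap. C1qa read 78.9, 121, 87.8 and 42.9 CPM in shNT kidneys and 80.9, 188, 366 and 201 CPM in shNT livers (log2 fold change 1.34, SE 0.36, adjusted p = 0.00436), C1qb 72.1, 129, 84.7 and 41.7 and 74.4, 173, 360.2 and 208 CPM (log2 fold change 1.32, SE 0.39, adjusted p = 0.00744), and C1qc 56.9, 92.8, 66.1 and 32.04 and 66.7, 160.01, 307 and 189 CPM (log2 fold change 1.54, SE 0.37, adjusted p = 0.00187). In each tissue the 3 genes ranked the libraries much alike, with shNT 3 highest in liver and shNT 2 highest in kidney. These calls were lost without TMM factors, where the differences were 0.34, 0.32 and 0.55. The summed C1q level ranged 4.66-fold over the 8 livers (222 to 1033 CPM), yet the sum of C1q per unit of 4 Kupffer cell genes (Clec4f, Timd4, Marco, Cd5l; Kupffer cells are the resident macrophages of liver) stayed between 1.07 and 1.46. Over the 8 kidneys it ranged from 117 to 343 CPM.

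**Figure D2:**
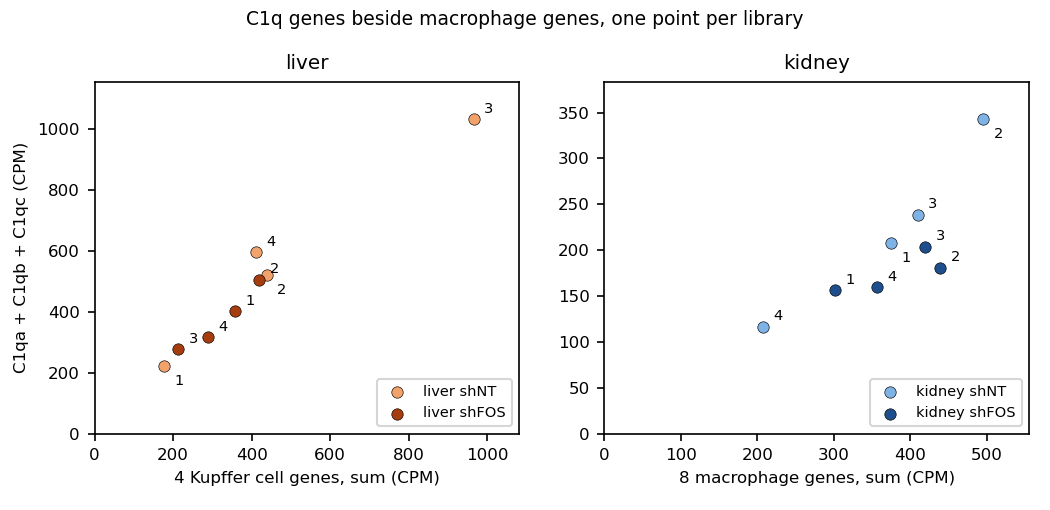
Summed level of C1qa, C1qb and C1qc in CPM against the summed level of macrophage genes in CPM, 1 point per library marked with its replicate number; liver is set against 4 Kupffer cell genes, kidney against 8 macrophage genes. In liver the points lie near a line from the origin, with shNT 3 at 1033 CPM farthest out.

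With shFOS, C1q levels in liver were 150.3, 186, 104 and 120.03 CPM for C1qa in shFOS 1 to 4 (log2 fold change -0.59, SE 0.39, adjusted p = 0.756), 126, 168, 85.5 and 102 CPM for C1qb (log2 fold change -0.77, SE 0.42, adjusted p = 0.739) and 125, 152, 88.005 and 93.7 CPM for C1qc (log2 fold change -0.66, SE 0.40, adjusted p = 0.742). Kidney values were 57.2, 62.98, 70.95 and 53.7 CPM for C1qa (log2 fold change -0.43, SE 0.27, adjusted p = 0.305), 56.5, 66.6, 72.8 and 61.2 CPM for C1qb (log2 fold change -0.35, SE 0.29, adjusted p = 0.44) and 42.6, 51.4, 59.9 and 44.5 CPM for C1qc (log2 fold change -0.32, SE 0.29, adjusted p = 0.467). In both tissues the shFOS values lay inside the shNT range for each of the 3 genes, in kidney because of the low values of shNT 4. Without that library the kidney differences were -0.65 for C1qa, -0.57 for C1qb and -0.54 for C1qc (adjusted p = 0.0884, 0.107 and 0.11), and the groups then did not overlap for C1qa.

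In kidney, none of the 41 listed genes that could be tested passed between shFOS and shNT at an adjusted p under 0.05, nor did any of the 14892 genes tested (smallest adjusted p 0.0660). The other 8, Masp2, Hc, C8b, C9, F7, F12, F11 and F9, had too few kidney reads. At an unadjusted p under 0.05, 11 of the 41 (26.8%) differed in edgeR's test, where 31.9% of all genes did. Of these, 7 were higher in shFOS (17.1% of all genes were), namely Cfb, Tfpi, F8, F5, F13b, Serpind1 and Serpinf2, and 4 were lower (14.8% of all genes were), namely C4b, C3, Cfp and F13a1. The groups did not overlap for 3 of 41 genes, where 17.2% of all genes did not. Neither share was above that of all genes tested. Their median log2 fold change was -0.07, beside 0.00 over all genes tested.

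The genes nearest the threshold in kidney included cofactors and inhibitors of clotting that were higher in shFOS. F13b read 90.9, 69.8, 84.3 and 53.9 CPM in shNT 1 to 4 and 94.6, 142, 179 and 162 CPM in shFOS 1 to 4 (log2 fold change 0.96, SE 0.23, adjusted p = 0.066), and every shFOS kidney lay above every shNT kidney, shFOS 1 by a small margin. Serpinf2, the antiplasmin that restrains fibrinolysis, read 33.7, 33.5, 35.1 and 19.2 and 50.8, 42.1, 52.2 and 55.7 CPM (log2 fold change 0.73, SE 0.19, adjusted p = 0.0666), again without overlap. Factor VIII, the cofactor of factor IX, read 8.25, 7.79, 6.03 and 5.14 and 8.17, 14.5, 13.1 and 13.9 CPM (log2 fold change 0.87, SE 0.23, adjusted p = 0.066). Factor V, the cofactor of factor X, read 10.8, 5.54, 5.48 and 2.43 and 7.43, 24.6, 16.6 and 26.5 CPM (log2 fold change 1.63, SE 0.49, adjusted p = 0.076). For F8 and F5 the libraries shFOS 2, 3 and 4 lay above all of shNT while shFOS 1 fell inside it. Tfpi read 14.7, 10.98, 15.1 and 13.1 and 13.5, 17.5, 23.3 and 25.4 CPM (log2 fold change 0.57, SE 0.21, adjusted p = 0.103), with the same library inside the shNT range. F13b, Serpinf2, F8 and F5 each had their lowest kidney value in shNT 4. Without shNT 4 their log2 fold changes were smaller, at 0.82, 0.56, 0.75 and 1.37.

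**Figure D3:**
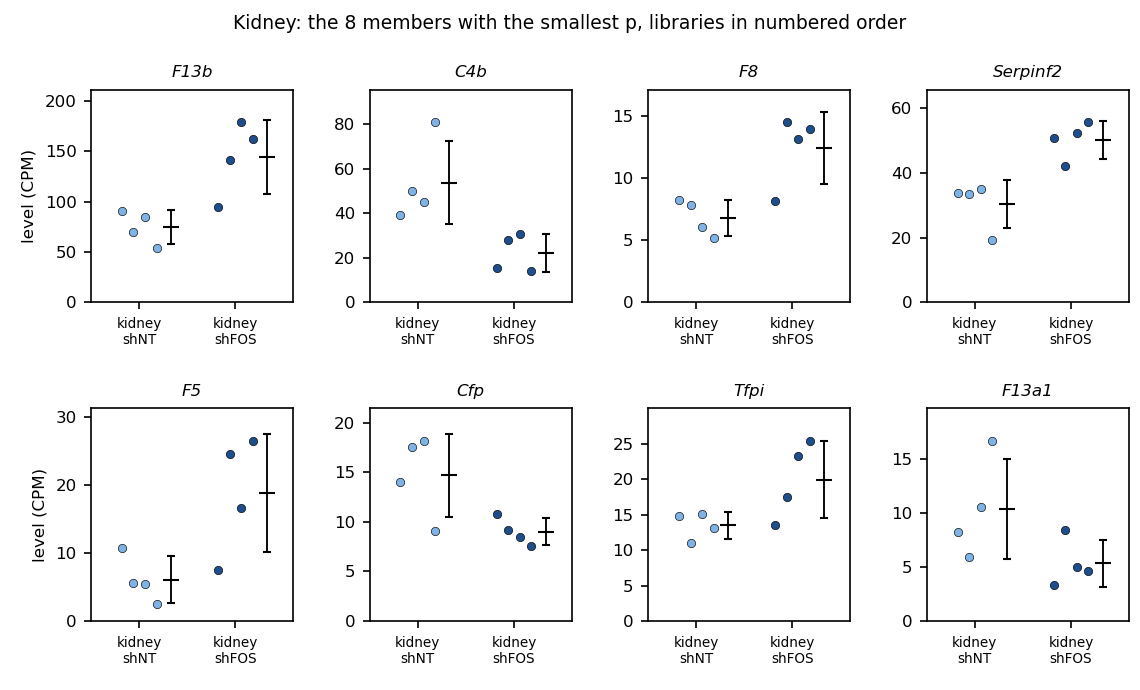
Kidney level in CPM of the 8 genes of the list with the smallest p between shFOS and shNT, 1 point per library in order of replicate number, with the mean and SD at the side. F13b and Serpinf2 lie higher and C4b lower in shFOS without overlap, and the other 5 overlap.

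Of the 20 complement genes tested in kidney, 13 had a log2 fold change below zero and 7 above. At an unadjusted p under 0.05 in edgeR's test, 3 (C4b, C3 and Cfp) were lower and 1 (Cfb) was higher in shFOS, where 14.8% and 17.1% of all genes were. The median of the 20 was -0.24 beside 0.00 over all genes tested. Of the 21 coagulation genes tested, 13 lay above zero and 8 below, with a median of 0.16. At that p, 6 of the 21 were higher and 1 was lower. C4b, the C4 of the classical and lectin pathways, read 39.1, 49.99, 45.2 and 80.99 CPM in shNT and 15.6, 27.9, 30.9 and 14.04 CPM in shFOS (log2 fold change -1.27, SE 0.31, adjusted p = 0.066), with no overlap. Properdin, which stabilizes the alternative pathway convertase and is made by leukocytes, read 14.04, 17.6, 18.1 and 9.06 and 10.8, 9.13, 8.46 and 7.55 CPM (log2 fold change -0.71, SE 0.22, adjusted p = 0.0789), and only shNT 4 and shFOS 1 and 2 broke the separation. C3 read 134, 212, 241 and 109 CPM in shFOS, against the shNT values above (log2 fold change -0.75, SE 0.29, adjusted p = 0.121). Of the coagulation genes, F13a1 read 3.37, 8.47, 4.997 and 4.61 CPM in shFOS (log2 fold change -0.94, SE 0.35, adjusted p = 0.113), and it overlapped. C3 and F13a1 had their highest kidney value in shNT 4, as did C4b and C7. Without that library the differences were -0.55 for C3, -0.62 for F13a1 and -1.02 for C4b. C3 and F13a1 then no longer had an unadjusted p under 0.05 in edgeR's test (0.088 and 0.0789), while C4b did (0.00667).

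Kidney thrombomodulin read 35.1, 42.1, 40.03 and 40.1 CPM in shFOS (log2 fold change 0.33, SE 0.18, adjusted p = 0.229), tissue factor 17.8, 20.2, 14.4 and 17.6 CPM (log2 fold change -0.15, SE 0.11, adjusted p = 0.39) and Vwf 11.6, 11.3, 3.51 and 4.61 CPM (log2 fold change -0.13, SE 0.39, adjusted p = 0.836). All 3 overlapped the shNT kidneys. The Serpinc1 values above differed by 0.09 (SE 0.40, adjusted p = 0.896).

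The kidney calls depended on the libraries compared and on the method. Without shFOS 1, 8 of 41 passed at an adjusted p under 0.05 (F13b, F8, F5, Serpinf2, Tfpi and Cfb higher, C4b and Cfp lower), while 27.5% of all genes tested did. DESeq2 called 6 (F13b, F8, F5, Serpinf2, C4b and Cfp) beside 17% of all genes, and a fit of the 16 libraries together called 5 beside 6.45%. Leaving out both kidneys numbered 1, 7 passed beside 23.3%. Without shFOS 4, 6 of 41 rather than 11 had an unadjusted p under 0.05, beside 21.6% of all genes. In each of these the share of the listed genes was near or below that of all genes tested, except in the fit of the 16 libraries, where 5 of 49 stood beside 6.45%.

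Of the fibrinogen genes in kidney, Fga and Fgg turned on 1 library. Fga read 41.3, 28.8, 34.3 and 168 CPM in shNT and 40.6, 38.7, 51.01 and 43.1 CPM in shFOS (log2 fold change -0.63, SE 0.52, adjusted p = 0.433), Fgb 18.3, 7.04, 7.65 and 28.9 and 13.8, 13.6, 33.7 and 15.5 CPM (log2 fold change 0.33, SE 0.49, adjusted p = 0.667), and Fgg 24.01, 17.1, 17.3 and 145 and 18.5, 17.98, 37.8 and 21.1 CPM (log2 fold change -1.07, SE 0.70, adjusted p = 0.323). Kidney shNT 4 held the highest Fga and Fgg, beside an acute-phase sum of 218 CPM, in which only Lcn2, Hp and Saa3 were highest there. Of the 8 hepatocyte markers 2 were highest in that kidney, Cyp2e1 (395 CPM against 36.4 to 118 in the other 7) and Serpina1c (7.89 against 1.47 to 6.23), as was the sum of the 8 (502 CPM against 123 to 299), while the other 6, Alb at 29.3 CPM among them, were not. The part of hepatocyte RNA in these values was not tested. Without kidney shNT 4 the differences turned to 0.32 for Fga and 0.29 for Fgg. The read ratio of Fga to Fgb was 1.51 to 5.80 over the 8 kidneys and 1.08 to 1.20 over the 8 livers.

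In liver, none of 48 listed genes passed between shFOS and shNT at an adjusted p under 0.05 and none had an unadjusted p under 0.05 in edgeR's test. Of the 13144 liver genes tested, 6.74% had an unadjusted p under 0.05 and none passed after adjustment (smallest adjusted p 0.712; 0.734 among the listed genes). DESeq2 called none of 49, beside 0.219% of all genes, and gave 5 (C5ar1, Fga, Fgb, Fgg and Serpinf2) an unadjusted p under 0.05, beside 7.67%. Leaving out shNT 1, 2, 3 or 4 in turn gave 5, 4, 6 and 3 genes at an unadjusted p under 0.05, beside 9.16%, 8.51%, 7.72% and 6.44% of all genes, and leaving out shFOS 2 gave 1, beside 5.96%. Only Cfd was not tested in liver. The groups did not overlap for 1 gene, Tfpi, where 4.56% of all genes did not. Values lay below zero for 35 of the 48, with a median log2 fold change of -0.13 beside -0.01 over all genes tested.

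**Figure D4:**
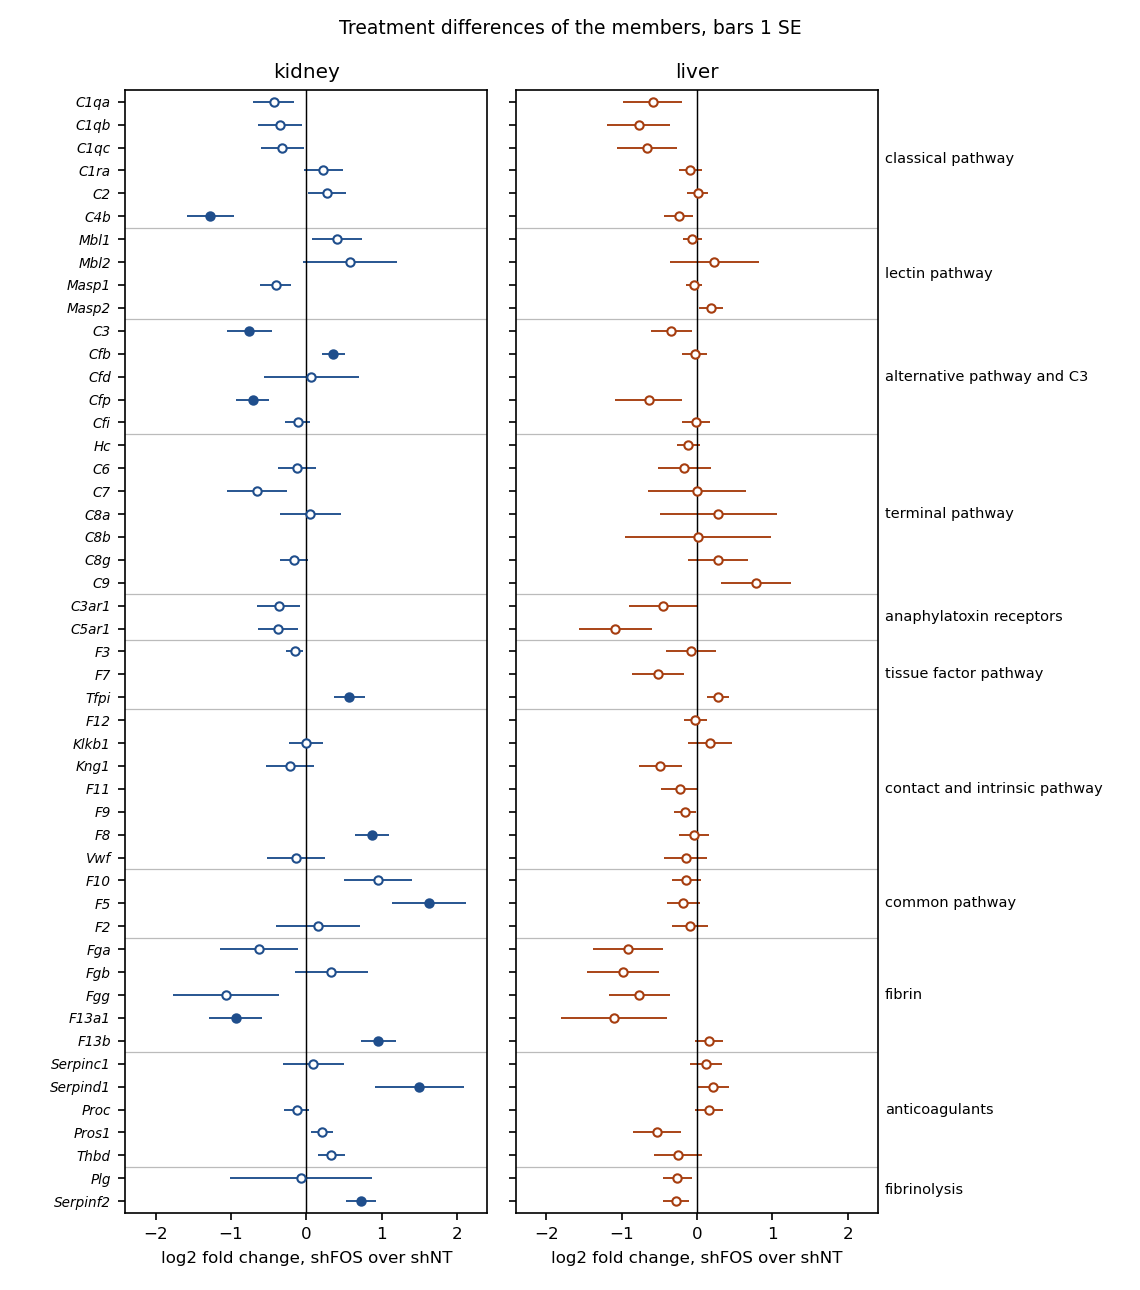
Log2 fold change, shFOS over shNT, of each listed gene tested in kidney (41) and in liver (48), with bars of 1 SE and the genes grouped by role. Filled points have an unadjusted p under 0.05, which 11 kidney genes and no liver gene reached.

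The liver values nearest to a difference were those of C5ar1, fibrinogen and Tfpi. C5ar1, carried by neutrophils and macrophages, read 1.66, 3.26, 7.54 and 8.17 CPM in shNT 1 to 4 and 1.99, 3.72, 1.81 and 2.31 CPM in shFOS 1 to 4 (log2 fold change -1.08, SE 0.49, adjusted p = 0.734), and all shFOS livers lay inside the shNT range. Tfpi read 6.28, 7.41, 7.61 and 7.12 and 9.65, 8.06, 8.39 and 8.73 CPM (log2 fold change 0.28, SE 0.14, adjusted p = 0.735), so that every shFOS liver was above every shNT liver. Kininogen read 5932, 6159, 4054 and 10285 and 4831, 4252, 5412 and 4515 CPM (log2 fold change -0.48, SE 0.28, adjusted p = 0.742). C3 read 16840.3, 16290.1, 16267 and 14067 CPM in shFOS (log2 fold change -0.34, SE 0.27, adjusted p = 0.776). For Kng1 and C3 shNT 4 held the highest value of the 8 livers, and without it the differences were -0.20 and -0.06.

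The 3 fibrinogen genes lie within 1 stretch of chromosome 3 (mm10, Fgg 83007724 to 83015049, Fga 83026076 to 83033627 and Fgb 83040141 to 83049863) and code for the 3 chains of a single protein. The 120 bases before each gene's GENCODE M21 start are shown because the genes were high together in liver shNT 4, beside the sum of its acute-phase genes. They are chr3:83025956-83026075 on the plus strand for Fga, chr3:83049864-83049983 on the minus strand for Fgb and chr3:83007604-83007723 on the plus strand for Fgg. Capitals mark letters of the C/EBP motif TTGCNNAA, a factor family of the acute-phase response, on either strand, and in Fgb also ATTAAC, the reverse complement of GTTAAT from the HNF1 motif. The sequences are from RefSeq (GRCm38.p6), 5′ to 3′ on the gene's strand.
Fga: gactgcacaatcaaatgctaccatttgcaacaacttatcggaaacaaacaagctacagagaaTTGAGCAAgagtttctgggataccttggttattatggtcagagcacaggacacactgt
Fgb: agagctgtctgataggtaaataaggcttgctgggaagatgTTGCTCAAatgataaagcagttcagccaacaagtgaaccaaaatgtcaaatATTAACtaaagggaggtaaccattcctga
Fgg: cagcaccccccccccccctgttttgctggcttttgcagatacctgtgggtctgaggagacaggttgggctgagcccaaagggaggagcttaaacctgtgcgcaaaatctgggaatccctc
Fga and Fgb carry the C/EBP letters in these stretches and Fgg carries neither motif there. A match is a description of letters, not of binding.

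Fibrinogen levels in liver followed shNT 4. Fga read 11847, 8892, 8617 and 36142 CPM in shNT and 8049.8, 7933, 10096 and 8850.5 CPM in shFOS (log2 fold change -0.91, SE 0.46, adjusted p = 0.734; liver over kidney 7.91, SE 0.73). Fgb read 10247, 8049.6, 7482 and 33312 and 6911, 6953, 8803 and 7368 CPM (log2 fold change -0.98, SE 0.47, adjusted p = 0.734; liver over kidney 9.90, SE 0.77). Fgg read 8397, 6529, 6068 and 21809.9 and 6129, 5785, 7159 and 6198 CPM (log2 fold change -0.77, SE 0.40, adjusted p = 0.737; liver over kidney 7.71, SE 0.83). The liver over kidney values ran from 7.17 to 8.87 for Fga, 9.12 to 10.38 for Fgb and 7.10 to 9.09 for Fgg, without liver shNT 4 and without kidney shNT 4. In shNT 4 the fibrinogen genes took 6.65% of the counted reads, against 1.91%, 1.62% and 1.74% in shNT livers 1 to 3 and 1.83% or less in the shFOS livers. Without shNT 4 the differences between shFOS and shNT were -0.19, -0.22 and -0.17. The groups overlapped for each of the 3 genes.

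**Figure D5:**
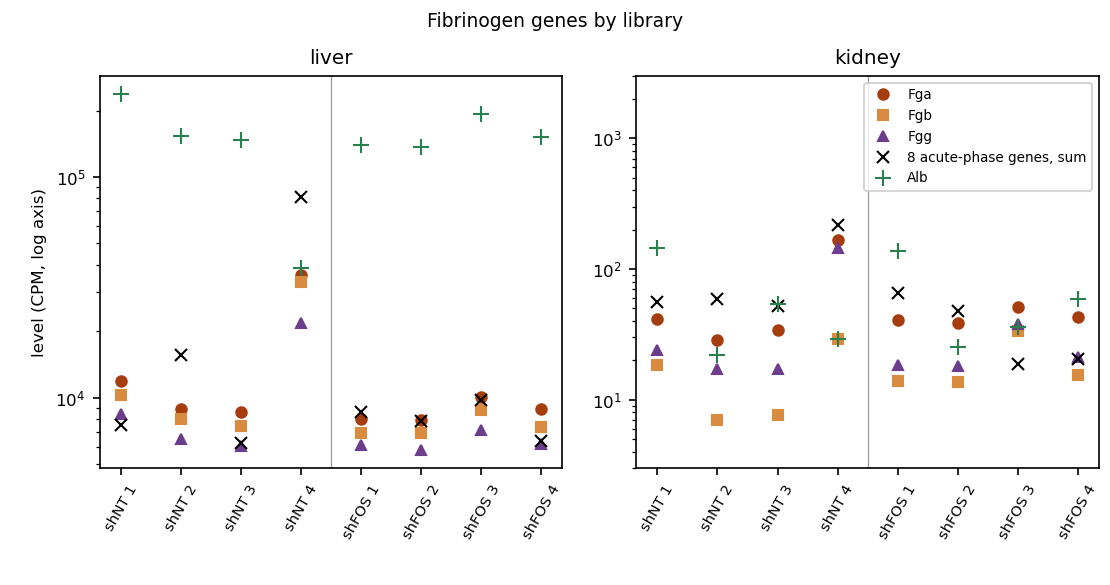
Level in CPM on a log axis of Fga, Fgb and Fgg in each library of liver and of kidney, beside the sum of 8 acute-phase genes and albumin. In liver shNT 4 fibrinogen and the acute-phase sum are highest and albumin lowest. In kidney shNT 4 Fga, Fgg and the acute-phase sum are highest, with albumin at 29.3 CPM. The sum of the 8 hepatocyte markers, not drawn, is also highest in kidney shNT 4.

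Several genes of terminal complement, and Mbl2, varied widely between livers of the same group. C8a read 84.1, 116, 100.5 and 427 CPM in shNT and 156, 87.9, 571 and 67.5 CPM in shFOS, and C8b 15.8, 71.9, 31.5 and 299.6 and 86.1, 36.05, 265 and 35.4 CPM. Both were high in shNT 4 and in shFOS 3, 1 library of each group, and the genes lie 11130 bases apart on chromosome 4. C8g, the third chain, read 554, 528, 456 and 128 and 512, 518, 384 and 629.9 CPM, lowest in shNT 4. C9, which polymerizes into the pore, read 221, 430.1, 263 and 94.1 and 403, 285, 739.6 and 314 CPM (log2 fold change 0.78, SE 0.46, adjusted p = 0.742), also lowest in shNT 4 and highest in shFOS 3, and without shNT 4 its difference was 0.49. Mbl2, a mannose-binding lectin, read 1433, 1174, 1100.1 and 115 CPM in shNT livers and 1117, 1188, 862 and 1356 CPM in shFOS livers, again lowest in shNT 4. Thus within liver shNT 4 fibrinogen, C3, C8a, C8b and Kng1 were high while Mbl2, C8g and C9 were low.

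Liver thrombomodulin read 5.42, 6.09, 6.498 and 3.94 CPM in shFOS (log2 fold change -0.25, SE 0.32, adjusted p = 0.853), tissue factor 6.06, 4.59, 3.70 and 2.74 CPM (log2 fold change -0.08, SE 0.34, adjusted p = 0.965), Vwf 10.5, 12.1, 8.31 and 5.14 CPM (log2 fold change -0.15, SE 0.28, adjusted p = 0.911) and Serpinc1 3669, 3839.5, 3395 and 4001 CPM (log2 fold change 0.11, SE 0.21, adjusted p = 0.911). All 4 overlapped the shNT livers.

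Whether the shFOS difference itself differed between tissues was tested as liver effect minus kidney effect. None of the 49 genes passed at an adjusted p under 0.05, nor any of the 15421 tested (smallest adjusted p 0.179). At an unadjusted p under 0.05 there were 7 of 49, where 16.1% of all genes reached it: C4b was higher, and Serpinf2, F5, F8, F13b, F10 and Serpind1 were lower. Serpinf2 had a difference of -0.996 (SE 0.27, adjusted p = 0.179), from a log2 fold change of 0.73 in kidney and -0.28 in liver, where it read 1901, 2059.5, 1405 and 2004 CPM in shNT and 1463, 1546, 1521 and 1577 CPM in shFOS. F5 had -1.80 (SE 0.56, adjusted p = 0.191) with liver values of 1077, 779.6, 799 and 505 and 645, 759, 677 and 733 CPM. F8 had -0.90 (SE 0.31, adjusted p = 0.2) with liver values of 8.59, 13.3, 11.3 and 13.04 and 10.9, 13.8, 12.1 and 8.48 CPM. C4b had 1.05 (SE 0.40, adjusted p = 0.225) with liver values of 2861, 2979, 2049 and 3234 and 2424, 2303, 2095 and 2645 CPM. For all 4 genes the liver groups overlapped. DESeq2 called Serpinf2 (2.26% of all genes), and without kidney shFOS 1 edgeR called 5 of 49, F12, F13b, F5, F8 and Serpinf2, beside 7.99% of all genes.

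Other genes of these pathways, regulators, receptors, lectins, serpins and processing enzymes, formed a list of which 54 were counted. Between shNT liver and kidney 42 of 49 tested passed, 32 higher and 10 lower in liver, beside 30.2% and 34.4% of all genes. None passed in edgeR's test between shFOS and shNT in either tissue or for the difference between tissues. At an unadjusted p under 0.05 there were 10 of 45 in kidney (7 higher, 3 lower), 8 of 44 in liver (4 higher, 4 lower) and 9 of 49 for the difference, beside 31.9%, 6.74% and 16.1% of all genes. In liver that was 18.2% of this list and 0 of the 48 genes above, a difference that was not tested. DESeq2 called 7 in kidney, all higher in shFOS, and 0 in liver and for the difference, beside 17%, 0.219% and 2.26% of all genes in either direction. In kidney Plat, the tissue plasminogen activator, read 38.1, 44.3, 45.8 and 52.96 CPM in shNT and 75.1, 71.1, 75.01 and 60.3 CPM in shFOS (log2 fold change 0.64, SE 0.11, adjusted p = 0.066), without overlap. Cr1l, a membrane regulator of C3, had a log2 fold change of 0.42 and Lman1, which takes part in the secretion of factors V and VIII, of 0.46 (adjusted p = 0.066 and 0.0694), neither with overlap. In liver Serpina10, an inhibitor of factor X, read 659, 593, 365 and 755 and 320.04, 372, 358 and 338 CPM (log2 fold change -0.78, SE 0.21, adjusted p = 0.714). Serpine2 differed by 0.71 and Itgam, a receptor chain for cleaved C3 on myeloid cells, by -1.71 (adjusted p = 0.714 and 0.715). Itgam read 3.97, 8.30, 22.8 and 40.6 CPM in shNT livers 1 to 4 and 6.46, 7.59, 4.69 and 4.54 CPM in shFOS livers. Those groups overlapped, with shNT 1 below every shFOS liver and shNT 4 highest.

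Since Fos is part of AP-1, the AP-1 letters TGACTCA or TGAGTCA, which are each other's reverse complement, were searched on both strands of the 250 bases before each RefSeq start (GRCm38.p6). Of the 49 genes 38 had a promoter sequence, and 4 of the 38 (10.5%) held the letters in at least 1 promoter: C3ar1, C8g, F3 and Fgb. Of the 27025 genes with a promoter sequence 5.16% did, counted the same way. The stretches of 3 are shown, with the AP-1 letters in capitals, to set them beside the values above. They are chr6:122856162-122856195 on the minus strand for C3ar1, chr3:121723386-121723424 on the plus strand for F3 and chr3:83050014-83050052 on the minus strand for Fgb.
C3ar1: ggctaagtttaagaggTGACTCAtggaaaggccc
F3: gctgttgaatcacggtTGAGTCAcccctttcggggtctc
Fgb: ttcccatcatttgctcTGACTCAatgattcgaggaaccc
None of these 4 genes passed between shFOS and shNT: F3 had -0.15 in kidney and -0.08 in liver on the log2 scale, C3ar1 -0.37 and -0.45, C8g -0.17 and 0.28, and Fgb 0.33 and -0.98. The C/EBP motif TTGCNNAA was found in 7 of the 38 (18.4%; 10.8% of all genes, here and below counted with at least 1 promoter), in C3, C9, F11, F9, Fga, Fgb and Klkb1. The HNF1 letters GTTAAT, on either strand, were found in 9 (23.7%; 7.49% of all genes), in C1ra, C7, C8a, C8b, Cfp, F13b, Fga, Fgb and Hc. The full palindromic HNF1 motif and the HNF4 motif CAAAGTCCA were in none of the 38 (0.0111% and 0.451% of all genes). Letters outside these windows were not searched.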

How the data were processed

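Kidney and liver of aged mice were analysed as 16 libraries in 4 groups of 4. The authors trimmed the reads with Trimmomatic 0.39, aligned them to mm10 with HISAT2 2.2.1 and counted them per gene with HTSeq 0.12.4 without strand, and the deposited tables hold these raw counts, named by symbol. Depth was 14194543 to 18300277 counted reads per library. Reads that fell on no gene (13.4% to 26.7%) or were ambiguous (1.84% to 2.64%) stayed out of library sizes. Because ambiguous reads were dropped, values of overlapping genes are uncertain. Replicates of a group differed by more than sampling noise (smallest chi-square per degree of freedom 7.17).

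Treatment was tested within each tissue, and liver against kidney and the difference of effects in a fit of the 16 libraries, with edgeR 4.0.16 (filterByExpr, TMM, robust quasi-likelihood test, Benjamini-Hochberg over all genes tested, calls at an adjusted p under 0.05) in R 4.3.3. DESeq2 1.42.0 was the named alternative, because the study used it. CPM were scaled over the 16 libraries, and length and positions came from GENCODE M21, in which 98.2% of all symbols and 49 of the 49 were found. Promoters came from RefSeq. The pipeline was tested on simulated counts. Same-numbered shNT kidneys and livers deviated together for numbers 2, 3 and 4 (r = 0.290, 0.326 and 0.309), so the blocked value is printed where it changed a call between tissues. Number 1 did not (0.115, against 0.137 with another number). For shFOS kidneys and livers r was 0.079, 0.147, 0.039 and 0.107 for numbers 1 to 4, and number 3 was below its largest r with another number (0.066). Between treatment groups of a tissue r ran from -0.238 to 0.113.

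The genes, the list of other pathway genes and the markers were chosen with earlier results of these data known. Values in every library are given for C1qa, C1qb, C1qc, C3, Fga, Fgb, Fgg, F3, Vwf, Thbd and Serpinc1, for the 8 listed genes with the smallest p in each tissue, 5 in each direction with the largest difference between tissues, and 4 with the smallest p for the difference of effects. Of other pathway genes, those with the 4 smallest p in each tissue were to be named; some results are not reported here. C8a, C8b, C8g and Mbl2 in liver were added after their values were seen. Alternatives were other normalizations, no filter, edgeR's newer dispersion, a GC content correction (lowess, span 0.3), the replicate number as a block, 1 fit of the 16 libraries, and each library left out in turn; library size alone, and leaving out the pairs numbered 4 or 1, were added after the data were seen.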

Additional observations from a re-analysis of the deposited data

Results flagged for a closer look

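In 19 of 189 groups of 4 libraries with enough reads, 1 library lay far from the other 3 by Dixon's criterion, where chance gives about 1 in 20, or 9.45. Kidney shNT 4 held 6 of them: C2 at 30.6 CPM (45.6 to 48.1 in the other 3), F3 at 17.2, Serpinf2 at 19.2, C7 at 44.8, Fga at 168 and Fgg at 145 CPM, the first 3 low and the rest high. Liver shNT 4 held another 6, all high: Cfd at 4.72, C7 at 4.65, C8a at 427, Fga at 36142, Fgb at 33311 and Fgg at 21810 CPM. Kidney shFOS 3 was high in Fgb (33.7 CPM) and Fgg (37.8 CPM), while liver shFOS 3 was high in C6 (43.6 CPM) and low in F2 (2513 CPM). The remaining libraries were kidney shNT 1 with Hc at 0.927 CPM, kidney shFOS 1 with Kng1 at 5.82 CPM, and liver shNT 3, low in Plg at 3414 CPM. The libraries numbered 4 among shNT were thus apart in both tissues, in C7, Fga and Fgg each time.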

How the results depend on the processing

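Between tissues, the count of called genes stayed within 1.5 times of 46 under all 18 alternatives (42 to 46). In kidney, where edgeR called 0, DESeq2 called 6, the fit of the 16 libraries 5 and the fit without both kidneys numbered 1 7, and leaving out libraries in turn gave 0 to 8. The kidney count at an unadjusted p under 0.05 ran from 6 to 13 when libraries were left out. For other pathway genes in kidney the calls in these 3 fits were 7, 2 and 6, beside 17%, 6.45% and 23.3% of all genes, and 0 to 6 with libraries left out. In liver the count at an unadjusted p under 0.05, 0 in the main test, was 5 with DESeq2 and 1 each with no filter, the newer dispersion and the fit of the 16 libraries, and 0 to 6 with libraries left out. For the difference of effects DESeq2 called 1, leaving out libraries gave 0 to 5, the count at an unadjusted p under 0.05 reached 11 without kidney shFOS 1, and 0 to 1 other pathway genes passed. The cause was not tested. With the replicate number as a block, 0 listed genes passed in kidney, 0 in liver, 45 between tissues and 0 for the difference of effects, so the pairing changed no call other than that of C8a. Of the log2 differences named for shFOS in kidney, those that turned sign ran, with libraries left out in turn, from -0.89 to 0.32 for Fga and from -1.39 to 0.29 for Fgg (both positive without shNT 4), from -0.11 (without shFOS 3) to 0.81 for Fgb, from -0.16 (without shFOS 1) to 0.45 for Serpinc1, which was also -0.08, -0.07 and -0.01 without shNT 2, shNT 4 and shFOS 3, and from -0.42 to 0.10 for Vwf, positive without shNT 4, shFOS 3 or shFOS 4 and with the GC correction (0.0012). In liver F3 ran from -0.29 to 0.23 (positive without shNT 2 or shFOS 4), Serpinc1 from -0.042 (without shNT 4) to 0.23 and Vwf from -0.32 to 0.041 (without shFOS 4). Between tissues Vwf turned with library size alone (-0.83).

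Depth limits the kidney values of Masp2, Hc, C8b, C9, F7, F12, F11 and F9, which were not tested there, and 4 samples a group limit the rest. The labels give no batch, so none was examined.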

Other observations

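Platelet genes were compared after their values were seen. The sum of Pf4, Ppbp, Itga2b, Gp9 and Gp1bb was 18.005, 46.5, 29.4 and 32.002 CPM in shNT livers 1 to 4 and 11.6, 9.25, 8.96 and 10.96 CPM in shFOS livers 1 to 4. No shFOS liver reached the lowest shNT value, where 4.56% of all single liver genes tested did not overlap. Pf4, which encodes platelet factor 4, read 2.49, 8.95, 21.9 and 17.8 CPM in shNT and 2.07, 1.82, 2.30 and 0.856 CPM in shFOS livers, and Ppbp, a platelet chemokine, 7.94, 22.5, 2.42 and 3.60 and 2.39, 2.53, 0.905 and 2.74 CPM, so different genes led the sum in different shNT libraries. Itga2b read 5.72, 10.7, 4.61 and 7.72 CPM in shNT and 6.70, 4.35, 5.35 and 6.42 CPM in shFOS livers. Of the single genes only Pf4 did not overlap, by a small margin, while Itga2b, Ppbp, Gp9 and Gp1bb did. In kidney the sum ran from 9.64 to 17.2 CPM in shNT and from 6.04 to 10.4 CPM in shFOS, with overlap.

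The summed C1q level per unit of 8 macrophage genes (Adgre1, Cd68, Csf1r, Mrc1, Cd14, Lyz2, Ctss and Aif1) was 0.554 to 0.691 in shNT kidneys and 0.412 to 0.518 in shFOS kidneys, which do not overlap. The same ratio was 0.794 to 0.882 in shNT livers and 0.701 to 0.814 in shFOS livers, which overlap. Neither ratio was tested, and 17.2% of all single kidney genes tested did not overlap between the groups. The ratio rests on the pooled list, whose genes ran differently in kidney. Csf1r ran from 54.3 to 122 CPM in shNT and from 57.2 to 94.8 CPM in shFOS, and Adgre1 from 4.06 to 17.0 and from 12.1 to 25.7 CPM. Ratios to single macrophage genes were not examined.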
